A study of Mus musculus with 4 samples.

Results

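The genes of glycolysis and of pyruvate handling were followed in retina of the mouse embryo at embryonic day E13.5, in 2 control libraries and 2 libraries labelled Isl1cKO. The group consists of 36 genes named by symbol, out of 25239 gene IDs in the deposited tables, and covers 17 steps from glucose uptake to the entry of pyruvate into the mitochondrion. They were chosen by name with the difference between the genotypes in these same libraries already known, so their differences, and the counts of them past a threshold in the fit of all genes, are given as a description that tests nothing about the group. All 36 have a row in each table, and 35 reached the minimum for the fit of all genes (1 TPM in at least 2 libraries, TPM being transcript abundance scaled to transcript length and to a fixed library sum). Pdk4 did not.

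Isl1 encodes a LIM-homeodomain transcription factor of differentiating retinal neurons, and the series addressed gene expression in retina without it. Neither the allele nor the Cre driver of the Isl1cKO embryos is named in the labels, the controls are described only as control, and the labels do not say how many embryos a library holds. P-values and SDs therefore measure only the spread between these libraries, which may be technical. The Isl1 transcript was measured at 242 and 201 TPM in the controls, against 321 and 223 TPM in the Isl1cKO libraries (replicate 1 before replicate 2, here and throughout). The Isl1cKO label is therefore not borne out by a lower Isl1 level, so that all differences are between libraries as labelled. The tables hold 1 value per gene and none per exon, so a deletion of part of the gene cannot be read from them. Retinal identity was read from Pax6 and Rax, which lay between 405 and 610 TPM in the 4 libraries. Depth in reads is not recorded, and the ratio of coverage to FPKM corresponds to 12.6 to 14.3 gigabases of aligned sequence per library.

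Glycolysis splits glucose into pyruvate in the cytosol. Pyruvate is then either reduced to lactate by lactate dehydrogenase and exported by monocarboxylate transporters, or imported into mitochondria and oxidised by the pyruvate dehydrogenase (PDH) complex, which PDH kinases switch off. Retina is known for converting much of its glucose to lactate even when oxygen is present. Many of the reactions can be catalysed by several isoenzymes from different genes, and many of these genes are known targets of the hypoxia-inducible factors (HIF).

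At most steps the gene that led in the controls was more abundant in both libraries labelled Isl1cKO than in both controls, and the level in Isl1cKO replicate 2 was mostly the highest of the 4. Summed over the 36 genes, the share of library TPM was 1.01% and 0.912% in the controls, against 1.21% and 1.65% in the Isl1cKO libraries. Of the 17 genes with the highest mean TPM over all 4 libraries at their step, 14 were higher in both Isl1cKO libraries than in both controls, Hk1 was lower, and the groups overlapped for Pdhb and Mpc2. Of all tested genes, 14.9% were higher and 30.0% lower in this sense. Their median difference was 0.56 on the log2(TPM + 1) scale. Of the 18 tested genes that were not the highest of their step, 8 were higher, 2 were lower and 8 overlapped, with a median difference of 0.07. Pdk1 led its step only through the Isl1cKO libraries, and in the controls Pdk3 led it. With steps led by the control means alone, a choice added after the values had been seen, 13 of 17 leading genes were higher, 1 was lower and 3 overlapped, and the medians were 0.54 for the leading and 0.14 for the other genes. The median over all 13984 tested genes was -0.05.

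**Figure D1:**
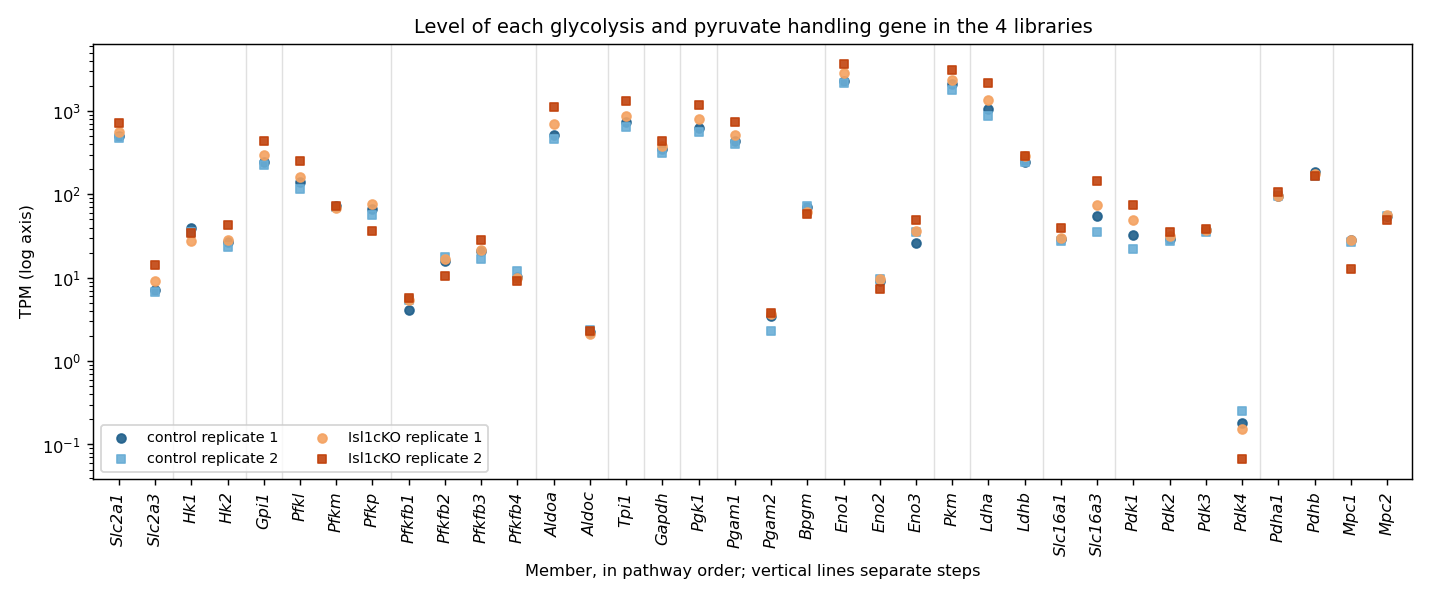
TPM (log axis) of the 36 genes in pathway order, 1 point per library: blue for control and orange or red for Isl1cKO, circles for replicate 1 and squares for replicate 2. The red squares of Isl1cKO replicate 2 stand highest at most abundant enzymes, from 437 TPM for Gpi1 to 3683 TPM for Eno1, and lowest for Mpc1, Pfkp and Pfkfb2.

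No gene of the group passed the threshold in the fit of all genes. At an adjusted p-value under 0.05 (limma on log2(TPM + 1), Benjamini-Hochberg over all genes tested), 0 of 35 were called, beside 0.493% of all tested genes. At an unadjusted p-value under 0.05, 13 were higher, beside 3.20% of tested genes in that direction, and 1 was lower (Bpgm), beside 8.92%. The groups did not overlap for 22 higher and 3 lower members of the 35, where the same was seen in 14.9% and 30.0% of tested genes. Because the genes were chosen with this contrast known, nothing is read from these counts.

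The libraries labelled Isl1cKO differed from each other by more than replicate 1 differed from the controls. Over the 35 genes the median difference from the control mean was 0.18 in Isl1cKO replicate 1 and 0.41 in Isl1cKO replicate 2, and the median of the difference between those 2 libraries was 0.32. Without Isl1cKO replicate 2 the median group difference thus went from 0.30 to 0.18, with 30 of 35 genes above 0. Isl1cKO replicate 2 lay above replicate 1 in 27 of 35 genes, beside 38.5% of all tested genes. Values ordered as control replicate 2, control replicate 1, Isl1cKO replicate 1 and Isl1cKO replicate 2, from low to high, occurred in 19 of 35 genes, beside 3.91% of tested genes. This order was looked at after the values had been seen.

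**Figure D2:**
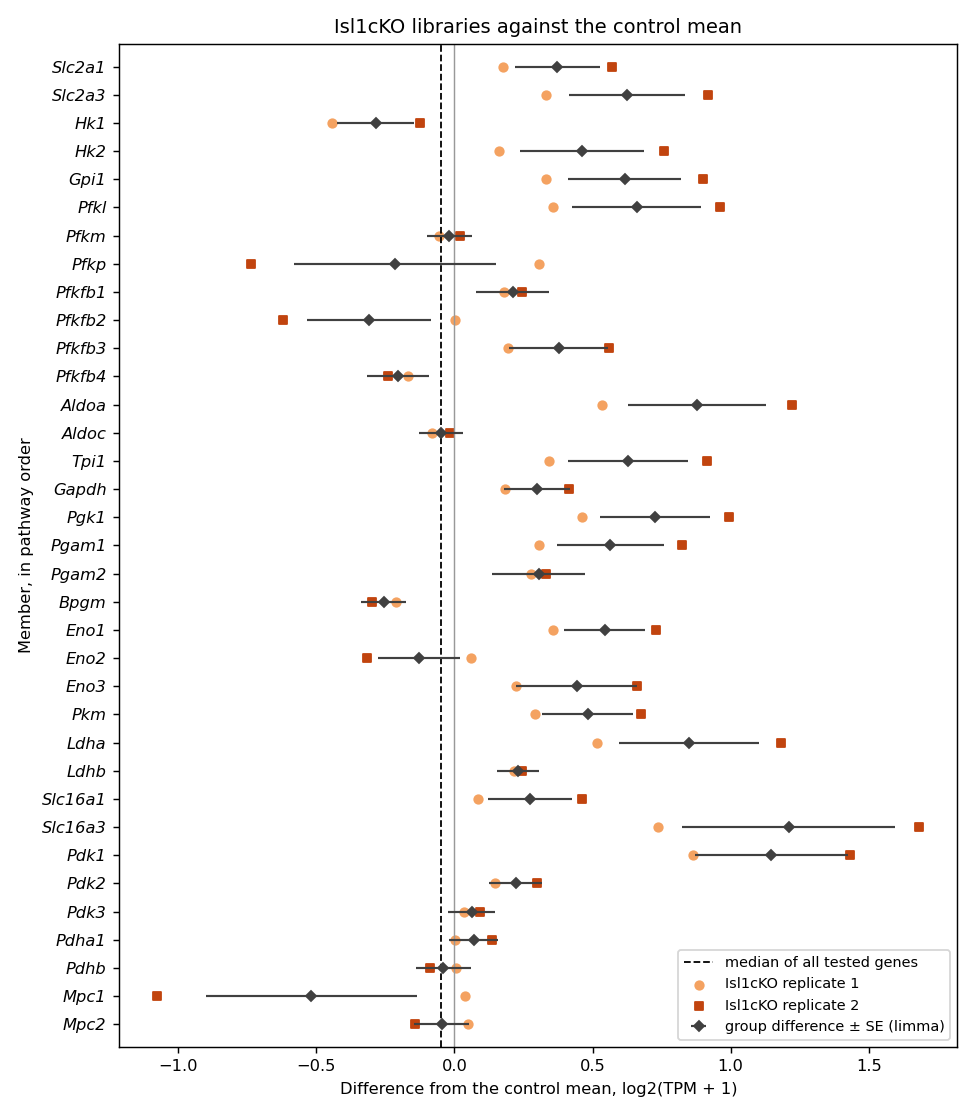
Difference from the control mean on the log2(TPM + 1) scale for the 35 tested genes, in pathway order: orange circles are Isl1cKO replicate 1, red squares are Isl1cKO replicate 2, and diamonds with bars are the group difference ± SE from limma. The dashed line is the median of all tested genes, -0.05. Replicate 2 lies to the right of replicate 1 in 27 genes, and Slc16a3 and Pdk1 lie farthest to the right.

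Glucose enters through facilitative transporters. Slc2a1 (GLUT1; chromosome 4, 119108745 to 119137329, plus strand), the main transporter of barrier and neuroepithelial cells, stood at 501 and 477 TPM in the controls, against 553 and 726 TPM in the Isl1cKO libraries. Its group difference was 0.37 (SE 0.15, log2 scale). Slc2a3, the high-affinity transporter of neurons, was much less abundant, at 7.09 and 6.83 TPM in the controls, against 9.01 and 14.0 TPM in the Isl1cKO libraries. For both transporters the Isl1cKO values lay above the controls, and Slc2a1 made up between 98.1% and 98.6% of their summed TPM in every library.

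Hexokinases trap glucose in the cell by phosphorylating it, and here the isoenzymes differed in direction, by narrow margins. The difference was -0.29 (SE 0.14) for Hk1 and 0.46 (SE 0.23) for Hk2. The nearest values of control and Isl1cKO libraries were 35.7 and 34.4 TPM for Hk1, and 27.0 and 28.2 TPM for Hk2. Hk1, the constitutive form, was at 39.6 and 35.7 TPM in the controls, against 27.4 and 34.4 TPM in the Isl1cKO libraries. Hk2, the inducible form, was at 27.0 and 23.2 TPM in the controls, against 28.2 and 43.1 TPM in the Isl1cKO libraries. Hk1 was the only step-leading gene whose Isl1cKO values both lay below the controls. Its share of the hexokinase TPM was 59.4% and 60.6% in the controls and 49.3% and 44.4% in the Isl1cKO libraries. The summed level of both genes overlapped between the groups, at 66.6 and 59.0 TPM against 55.5 and 77.5 TPM.

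Gpi1, which isomerises glucose phosphate to fructose phosphate, stood at 242 and 226 TPM in the controls, against 295 and 437 TPM in the Isl1cKO libraries, a difference of 0.62 (SE 0.21). Phosphofructokinase, the committed step, is built from liver, muscle and platelet type subunits. Pfkl, the liver type, was at 139 and 116 TPM in the controls, against 163 and 248 TPM in the Isl1cKO libraries, and its difference was 0.66 (SE 0.23). The muscle type Pfkm did not follow it, with 73.1 and 70.4 TPM against 68.9 and 72.6 TPM. The platelet type Pfkp split the Isl1cKO libraries, with 76.4 TPM in replicate 1 but only 36.6 TPM in replicate 2, around control values of 66.5 and 57.0 TPM. Pfkl therefore held 49.9% and 47.6% of phosphofructokinase TPM in the controls, 52.8% in Isl1cKO replicate 1 and 69.4% in Isl1cKO replicate 2. This shift in make-up rested on Isl1cKO replicate 2.

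The bifunctional enzymes of the Pfkfb family make and remove fructose bisphosphate signals that activate phosphofructokinase. Their summed level was nearly the same in the 4 libraries, between 51.3 and 53.8 TPM. Within that sum Pfkfb3, the form with the strongest kinase activity, was at 21.2 and 16.7 TPM in the controls, against 21.7 and 28.3 TPM in the Isl1cKO libraries. Its values were higher in both Isl1cKO libraries, by little in replicate 1. Pfkfb2 stood apart only in Isl1cKO replicate 2, at 10.5 TPM against 15.9 to 17.5 TPM in the other libraries. Pfkfb1 and Pfkfb4 were minor, between 4.09 and 12.2 TPM, with differences of 0.21 and -0.20.

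**Figure D3:**
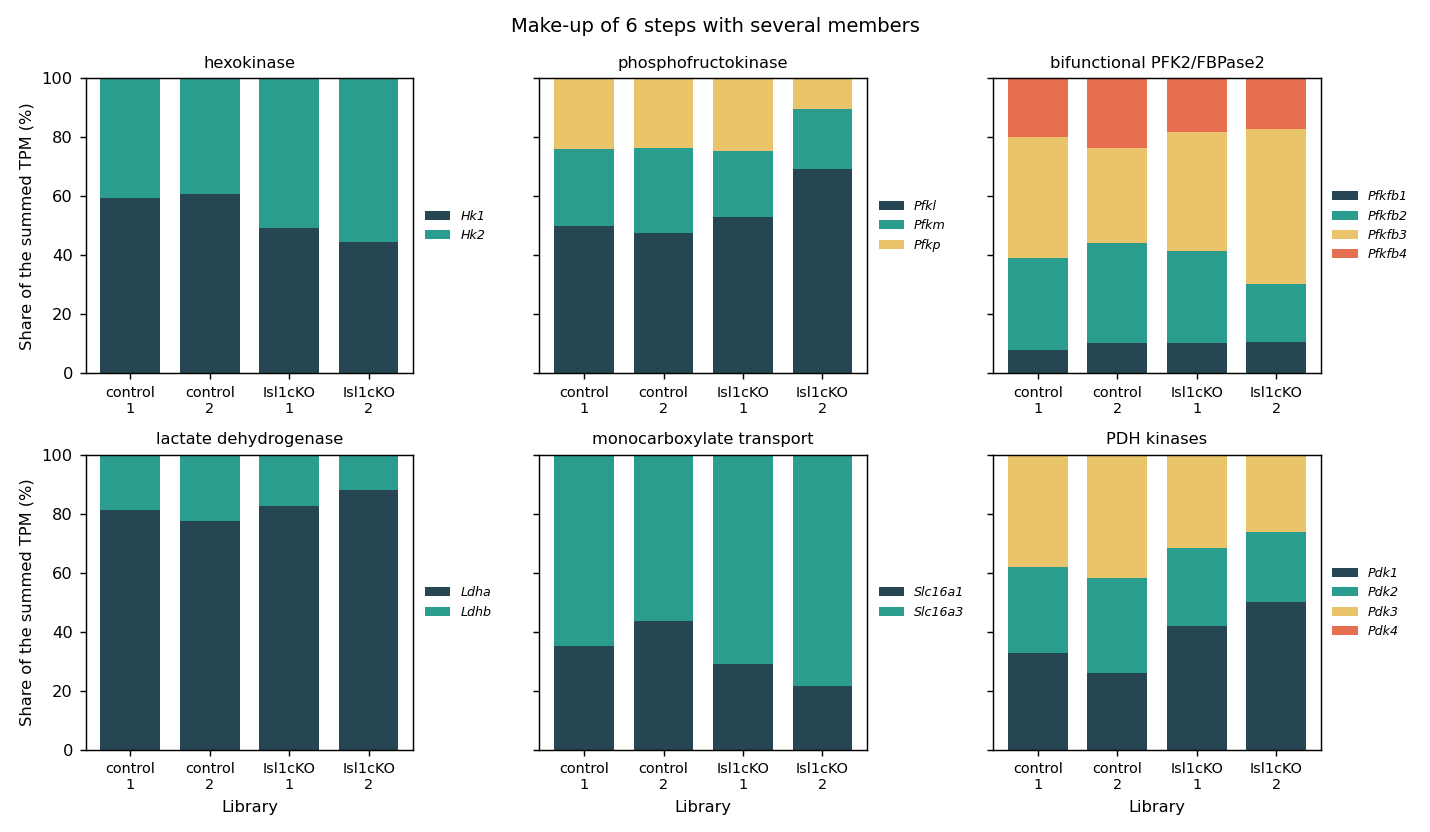
Share of the summed TPM (%) of each gene at 6 steps with several members, 1 stacked bar per library. Hk2, Pfkl, Ldha, Slc16a3 and Pdk1 take a larger share in Isl1cKO replicate 2 than in any other library, for example 69.4% for Pfkl and 50.2% for Pdk1.

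The reactions from aldolase to pyruvate kinase were carried by very abundant transcripts, and each leading gene was higher in both Isl1cKO libraries. Aldoa (chromosome 7, 126795234 to 126800447, minus strand), the aldolase of most tissues, stood at 513 and 456 TPM in the controls, against 700 and 1129 TPM in the Isl1cKO libraries. The group means were 484 ± 40.5 and 914 ± 304 TPM (SD, n = 2 each), and the log2 difference was 0.88 (SE 0.25). It was 0.53 in Isl1cKO replicate 1 alone and 1.22 in replicate 2 alone. Aldoc, the brain form, was at 2.14 to 2.37 TPM in all 4 libraries and did not separate the groups.

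Tpi1, which interconverts the triose phosphates, stood at 736 and 649 TPM in the controls, against 876 and 1305 TPM in the Isl1cKO libraries. Gapdh, which oxidises glyceraldehyde phosphate and is widely used as a reference gene, was at 349 and 313 TPM in the controls, against 376 and 441 TPM in the Isl1cKO libraries. Its difference of 0.30 (SE 0.12) was the smallest among the leading genes of these reactions. Pgk1 (chromosome X, 106187100 to 106203699, plus strand), which makes the first ATP of the pathway, was at 617 and 562 TPM in the controls, against 810 and 1174 TPM in the Isl1cKO libraries. Its difference was 0.73 (SE 0.20).

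Pgam1, the phosphoglycerate mutase of non-muscle tissue, stood at 439 and 398 TPM in the controls, against 517 and 740 TPM in the Isl1cKO libraries. The muscle form Pgam2 was low, at 3.46 and 2.27 TPM against 3.63 and 3.81 TPM. Bpgm, which makes the bisphosphoglycerate that lowers the oxygen affinity of haemoglobin in red blood cells, went the other way, with 70.9 and 71.7 TPM in the controls, against 61.4 and 57.7 TPM in the Isl1cKO libraries. Its difference was -0.26 (SE 0.08). Markers of red blood cells were lower in the same libraries, without overlap in 9 of 9 tested genes, beside 30.0% of all tested genes. In limma 0 of these markers passed the adjusted threshold. At an unadjusted p-value under 0.05, 5 were lower, beside 8.92% of all tested genes. Hbb-bs was listed at 0 in Isl1cKO replicate 2. The summed level of the red blood cell markers was 2904 and 4170 TPM in the controls, against 1419 and 205 TPM in the Isl1cKO libraries. Their part in the difference of Bpgm was not tested. In bulk tissue, fewer cells of a type and less RNA per cell cannot be told apart.

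Eno1 (chromosome 4, 150237197 to 150248873, plus strand), the enolase of proliferating and most other cells, was the most abundant transcript of the group. It stood at 2284 and 2159 TPM in the controls, against 2845 and 3683 TPM in the Isl1cKO libraries, a difference of 0.54 (SE 0.15). The neuronal form Eno2 was at 9.03 and 9.61 TPM in the controls, against 9.75 and 7.28 TPM in the Isl1cKO libraries, so the groups overlapped. The muscle form Eno3 was at 26.3 and 35.7 TPM in the controls, against 35.9 and 49.1 TPM in the Isl1cKO libraries, which all but touched. Skeletal muscle markers were near 0, at a summed 3.79 to 7.07 TPM over 10 genes, and Myod1 was listed at 0 in 3 libraries. Pkm, the pyruvate kinase of most tissues, stood at 2088 and 1803 TPM in the controls, against 2376 and 3098 TPM in the Isl1cKO libraries, with a difference of 0.48 (SE 0.16). Eno1 and Pkm together held between 41.2% and 43.4% of the TPM of all 36 genes.

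The lactate branch held the largest difference of the group, that of Slc16a3. Ldha (chromosome 7, 46845804 to 46855627, plus strand), the lactate dehydrogenase subunit that favours lactate formation, was at 1053 and 859 TPM in the controls, against 1361 and 2158 TPM in the Isl1cKO libraries. Its means were 956 ± 137 and 1760 ± 563 TPM (SD, n = 2 each), and its difference was 0.85 (SE 0.25). Ldhb, the subunit that favours pyruvate formation, was at 244 and 247 TPM in the controls, against 285 and 291 TPM in the Isl1cKO libraries. Its difference of 0.23 (SE 0.08) was small but about equal in both Isl1cKO libraries. The share of Ldha was 81.2% and 77.7% in the controls, 82.7% in Isl1cKO replicate 1 and 88.1% in Isl1cKO replicate 2.

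Slc16a3 (MCT4; chromosome 11, 120948484 to 120959000, plus strand), the lactate exporter of glycolytic cells, was less abundant than the dehydrogenases. It stood at 54.6 and 35.4 TPM in the controls, against 73.9 and 143 TPM in the Isl1cKO libraries, a difference of 1.21 (SE 0.38). The controls themselves differed by 0.61 on that scale and the Isl1cKO libraries by 0.95. Slc16a1 (MCT1), which carries lactate in both directions, was at 29.5 and 27.4 TPM in the controls, against 30.2 and 39.5 TPM in the Isl1cKO libraries, so replicate 1 lay barely above the controls. Bsg, which encodes the chaperone of both transporters and is no member, stood at 414 and 375 TPM against 439 and 512 TPM.

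Of the kinases that inactivate the PDH complex, Pdk1 alone stood far apart. Pdk1 (chromosome 2, 71873224 to 71903858, plus strand) was at 32.9 and 22.1 TPM in the controls, against 49.8 and 74.5 TPM in the Isl1cKO libraries. Its difference was 1.15 (SE 0.28), with 0.86 in Isl1cKO replicate 1 alone and 1.43 in replicate 2 alone. Pdk2 was at 29.0 and 27.4 TPM against 31.3 and 34.9 TPM, and Pdk3 at 37.7 and 35.2 TPM against 37.3 and 38.8 TPM. Pdk4, the fasting-induced kinase, was under 0.3 TPM in every library, at 0.183 and 0.255 TPM in the controls, against 0.155 and 0.0668 TPM in the Isl1cKO libraries. Pdk3 was the leading kinase in both controls, and Pdk1 was so in both Isl1cKO libraries, where it held 42.0% and 50.2% of the kinase TPM against 32.9% and 26.0% in the controls.

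On the mitochondrial side the Isl1cKO values lay close to the controls, apart from Mpc1 in Isl1cKO replicate 2. Pdha1 and Pdhb, the subunits of the E1 component of the PDH complex, lay at 94.7 to 105 TPM and at 166 to 187 TPM, with overlapping groups and differences of 0.07 and -0.04. Mpc1 and Mpc2 together form the carrier that brings pyruvate into the mitochondrion. Mpc2 was at 55.3 and 54.5 TPM in the controls, against 56.9 and 49.6 TPM in the Isl1cKO libraries. Mpc1 was at 28.6 and 27.0 TPM in the controls, against 28.6 and 12.6 TPM in the Isl1cKO libraries. Its difference of -0.52 (SE 0.38) was 0.04 without Isl1cKO replicate 2, and that library set its direction. The directions of Pfkm, Pdhb and Mpc2, all within 0.05 of 0, turned under median-ratio scaling.

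**Figure D4:**
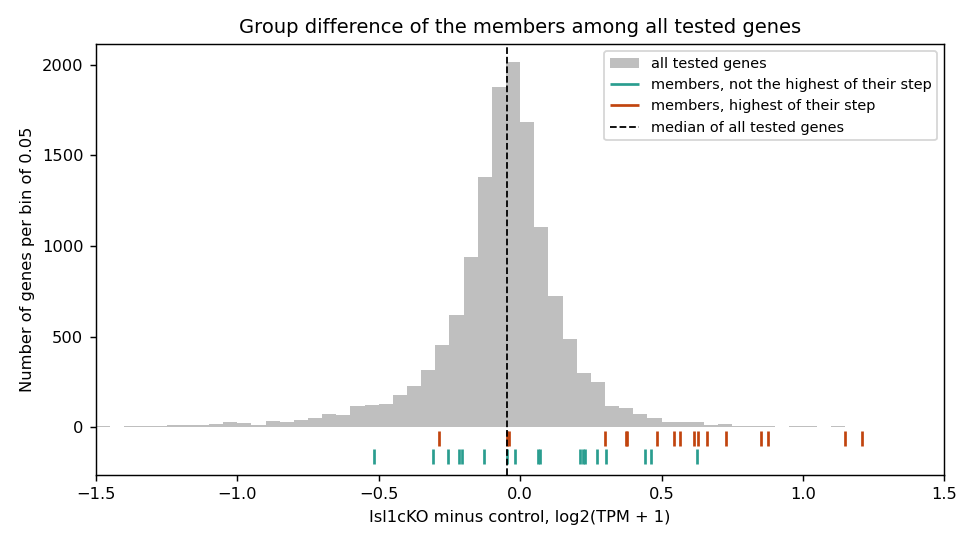
Number of tested genes (grey, bins of 0.05) by group difference on the log2(TPM + 1) scale, with the 97 genes beyond 1.5 in either direction not drawn. Ticks under the axis are the 35 tested members, red for the highest of each step over all 4 libraries and green for the others. Most red ticks lie between 0.30 and 1.21, and the green ticks spread from -0.52 to 0.62.

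The other genes of sugar metabolism were divided between both directions. Of 66 listed, 57 were tested and 0 passed the adjusted threshold in limma. At an unadjusted p-value under 0.05, 2 were higher and 4 lower, beside 3.20% and 8.92% of all tested genes. The groups did not overlap for 14 higher and 16 lower genes, beside the same 14.9% and 30.0% of all tested genes, and the median difference was -0.02. The 11 genes of the tricarboxylic acid cycle had a summed level of 1537 TPM in both controls and of 1544 and 1540 TPM in the Isl1cKO libraries. The pentose phosphate genes had a median difference of 0.06 over 7 genes. The rest of the PDH complex and its phosphatases had a median of -0.13 over 6 genes. Of these 6, 3 were lower in both Isl1cKO libraries, beside 30.0% of all tested genes, and 3 overlapped. The largest of their differences was that of the phosphatase regulator Pdpr. It was at 19.4 and 16.1 TPM in the controls, against 17.9 and 8.31 TPM in the Isl1cKO libraries.

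Among these, Pgm1, which links glycogen to glucose phosphate, had the largest difference, 0.60, with 67.6 and 63.0 TPM in the controls, against 79.4 and 124 TPM in the Isl1cKO libraries. Of the alternative glucose kinases, Hkdc1 was at 7.47 and 6.52 TPM against 4.94 and 4.09 TPM, and Hk3 at 1.79 and 2.37 TPM against 2.50 and 4.28 TPM. None of these 3 passed the adjusted threshold.

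HIF genes and targets outside glycolysis were read beside the members. Of 24 listed, 21 were tested and 0 passed the adjusted threshold in limma, with 8 higher and 0 lower at an unadjusted p-value under 0.05, beside 3.20% and 8.92% of all tested genes. The groups did not overlap for 12 higher and 2 lower genes, beside 14.9% and 30.0% of all tested genes, and the median difference was 0.22 beside -0.05. Bnip3, a mitophagy receptor, was at 53.4 and 42.1 TPM in the controls, against 76.1 and 122 TPM in the Isl1cKO libraries. Ddit4, an inhibitor of mTORC1 signalling, was at 73.1 and 51.8 TPM against 99.2 and 146 TPM. Egln3, an oxygen-sensing hydroxylase of HIF, was at 4.43 and 3.05 TPM against 5.27 and 8.41 TPM, and P4ha1, a collagen hydroxylase subunit, at 35.8 and 35.7 TPM against 47.0 and 68.5 TPM. All 4, named for the largest differences of the list, were highest in Isl1cKO replicate 2, as were most members. Over the 21 tested genes the median difference between Isl1cKO replicate 2 and replicate 1 was 0.05, beside 0.32 for the members. Replicate 2 lay above replicate 1 in 15 of the 21, beside 38.5% of all tested genes. Vegfa, named after its values were seen, was nearly equal in the Isl1cKO libraries, at 125 and 115 TPM against 166 and 167 TPM. The transcript of Hif1a itself, named after its values were seen, was at 194 and 158 TPM against 171 and 145 TPM.

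Marker levels of other cell types also stood apart. Of 10 ganglion cell markers, 8 were lower in both Isl1cKO libraries and none was at 0. The 10 summed to 3855 and 3303 TPM in the controls and to 2177 and 1500 TPM in the Isl1cKO libraries. Isl1 itself was counted among these 10 and in their sum, and its groups overlapped. In limma 0 of the ganglion cell markers passed the adjusted threshold and 8 were lower at an unadjusted p-value under 0.05. Of all tested genes, 30.0% were lower and 14.9% higher without overlap, 8.92% were lower at that p-value, and 0.493% passed the adjusted threshold. Lens markers, 8 of 10 lower and 5 of them past the adjusted threshold, summed to 186 and 236 TPM against 12.1 and 8.33 TPM, and Lim2 was listed at 0 in both Isl1cKO libraries. Retinal progenitor markers, 4 of 10 higher, 2 lower and 4 overlapping, summed to 7787 and 7388 TPM against 6558 and 7284 TPM. Ganglion cell and red blood cell markers were lowest in Isl1cKO replicate 2, where most members were highest. The part of these markers in the levels of the glycolytic genes was not tested.

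**Figure D5:**
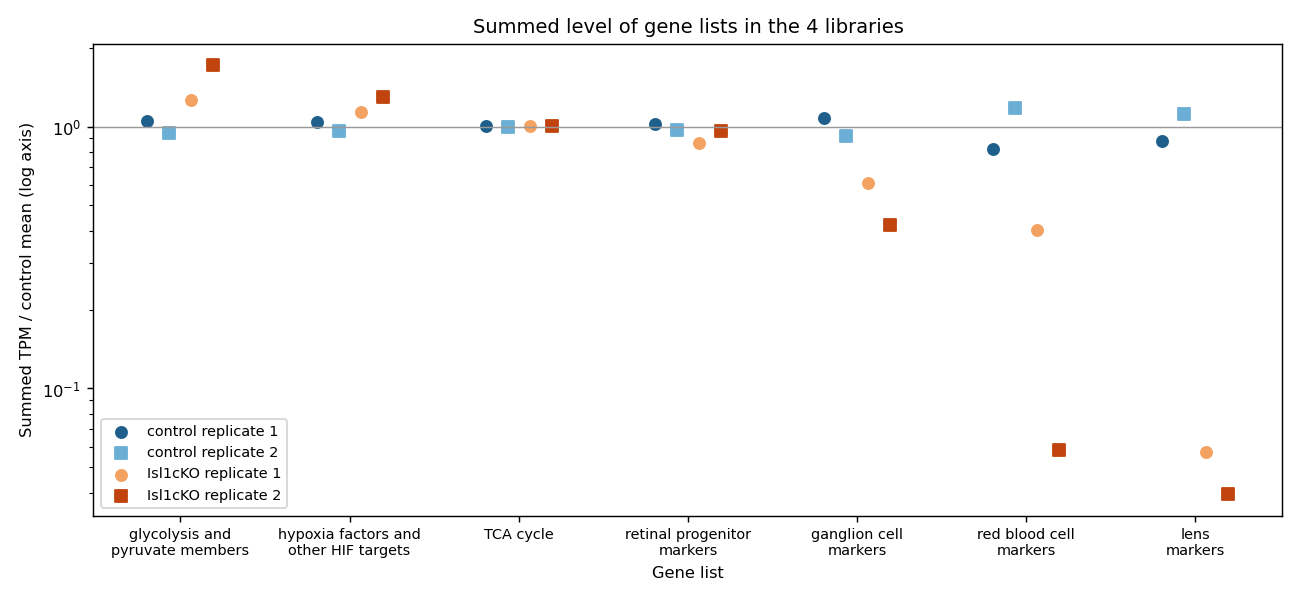
Summed TPM of gene lists in each library, divided by the control mean (log axis), with colours and symbols by library. The glycolysis and pyruvate genes stand highest in Isl1cKO replicate 2, the tricarboxylic acid cycle genes lie on the line at 1 in all libraries, and the red blood cell and lens markers are lowest in Isl1cKO replicate 2.

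Promoters were read for the core sequence that HIF binds. RefSeq promoter sequences of the mouse build GRCm38.p6 matched 35 of the 36 genes by symbol, and the 250 bases before the start nearest to the gene's start in the deposited tables were searched for ACGTG and GCGTG on both strands. The palindrome CACGTG, an E box, holds ACGTG on each strand and so counts as 2 overlapping cores. A core was present before 26 of 35 genes (74.3%), before 57.1% of 10831 tested genes with a promoter, and before 38.6% of all 32851 promoters of that length. Among the members it was present in 15 of the 21 whose Isl1cKO values lay above the controls and in 9 of the 10 whose groups overlapped. Aldoa and Gpi1, both higher in the Isl1cKO libraries, had none in this window, and Pdk3, whose groups overlapped, had 4. In Aldoa 193 of the 250 bases lie in exons of the gene itself, as do 208 in Pkm, 245 in Eno1 and 250 in Mpc2. The single core of Mpc2 therefore lies in an exon. The overlapping windows of Aldoa at 2 later starts hold the same single core. Windows at a later start also hold cores in Hk1 (3), which was lower in the Isl1cKO libraries. They hold 1 each in Pkm and Pfkfb1, which were higher. The nearest windows of these genes hold none. Such matches describe letters and not binding.

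The windows of the 4 genes with the largest difference among those that hold a core are shown, a choice made after the values had been seen, because their genes had large differences at lactate export, PDH kinase, lactate dehydrogenase and phosphoglycerate kinase. All 4 are on the plus strand and are written 5′ to 3′ up to the base before the start, with the cores in capitals. They are chr11:120948817-120949066 for Slc16a3, chr2:71872974-71873223 for Pdk1, chr7:46845554-46845803 for Ldha and chrX:106186850-106187099 for Pgk1. The windows of Pdk1, Ldha and Pgk1 end at the gene's start in the deposited tables. That of Slc16a3 lies inside the deposited gene, before a start 583 bases further on, and 14 of its bases lie in exons. Slc16a3 has 2 cores close to that later start. Pdk1 has 1 core, Ldha has 2 E boxes and another core, and Pgk1 has 2 cores in opposite directions.
Slc16a3: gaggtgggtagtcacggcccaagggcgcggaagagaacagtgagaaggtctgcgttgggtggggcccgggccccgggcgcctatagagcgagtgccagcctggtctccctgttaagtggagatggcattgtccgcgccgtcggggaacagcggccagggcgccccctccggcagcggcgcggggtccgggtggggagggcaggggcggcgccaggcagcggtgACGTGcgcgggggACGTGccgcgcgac
Pdk1: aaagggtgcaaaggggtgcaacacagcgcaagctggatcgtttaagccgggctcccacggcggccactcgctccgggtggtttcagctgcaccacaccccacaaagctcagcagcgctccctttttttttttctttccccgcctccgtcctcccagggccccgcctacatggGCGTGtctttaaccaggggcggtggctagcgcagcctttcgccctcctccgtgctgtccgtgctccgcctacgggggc
Ldha: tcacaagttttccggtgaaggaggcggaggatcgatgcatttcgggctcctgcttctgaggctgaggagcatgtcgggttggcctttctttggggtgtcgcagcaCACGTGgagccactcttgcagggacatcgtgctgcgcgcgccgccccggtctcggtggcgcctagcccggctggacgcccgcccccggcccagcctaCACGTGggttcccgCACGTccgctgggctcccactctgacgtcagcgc
Pgk1: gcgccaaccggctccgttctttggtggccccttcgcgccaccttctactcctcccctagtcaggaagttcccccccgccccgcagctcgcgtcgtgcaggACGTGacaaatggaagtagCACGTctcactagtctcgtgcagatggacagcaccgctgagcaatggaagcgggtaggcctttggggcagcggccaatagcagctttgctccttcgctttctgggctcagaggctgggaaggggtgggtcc

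Several of the abundant enzymes have near-identical copies in the genome, between which reads can be divided in ways the tables do not record. The longest coding transcript of each gene (GENCODE M21) was cut into all stretches of 50 bases, and the share that also occurs in transcripts of another gene was counted. It was 82.5% for Gapdh, 72.2% for Eno1, 68.0% for Pgk1, 41.5% for Pgam1 and 34.4% for Pkm. Lower shares were 30.26% for Pdhb, 27.01% for Ldhb, 25.14% for Pfkfb2, 23.25% for Mpc1, 19.26% for Gpi1 and 16.65% for Ldha. It was 13.53% for Aldoa and 7.51% for Tpi1, and 0 for Slc2a1, Slc2a3, Hk1, Hk2, Slc16a3 and Pdk1. The levels of the genes with high shares are uncertain. Eno1b, which shares 70.5% of these stretches with Eno1, stood at 531 and 553 TPM in the controls, against 678 and 854 TPM in the Isl1cKO libraries. The sum of Eno1 and Eno1b differed by 0.53, against 0.54 for Eno1 alone, a comparison added after the values had been seen. Gm12070, which shares 65.9% with Gapdh, stood at 120 and 119 TPM against 126 and 154 TPM.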

How the data were processed

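RNA was measured in 4 libraries, 2 per genotype. Per the labels' protocols, total RNA was extracted, poly(A)-selected and made into strand-specific libraries. The submitters' processing notes name Trimmomatic, FastQC, HISAT2, SAMtools, StringTie and DESeq2 and the build mm10, with no roles or versions. Each library has its own table, so replicates were not pooled. The TPM deposited by the authors are scaled to transcript length and to a fixed sum per library. The FPKM deposited by the authors entered an alternative and the estimate of aligned sequence. The deposited coverage, a mean per base that is not scaled to depth, entered only that estimate. TPM are shares, so a change in abundant genes moves all others, and no counting interval could be computed.

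TPM were summed over repeated rows, though no member stood on several rows. Genes with at least 1 TPM in at least 2 libraries were fitted as log2(TPM + 1) with lmFit and eBayes (limma 3.58.1, R 4.3.3) over all 4 libraries, and the model held genotype alone. Adjusted p-values are Benjamini-Hochberg over all 13984 tested genes. The fit was tested on simulated data. All differences are Isl1cKO minus control on this scale, which understates changes of low genes.

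The members, gene lists and tests were chosen with earlier results of these data known. Given in full are the gene with the highest mean TPM of each step over all 4 libraries and up to 8 further members with the largest difference among those whose groups do not overlap. From other lists, up to 4 genes with the largest difference are named. Some genes of these lists are not reported here by name. Marker lists covered 13 cell types or states. Microglia markers summed to 50.6 and 50.8 TPM in the controls and 61.7 and 75.8 TPM in the Isl1cKO libraries. The neurogenic, amacrine and horizontal, photoreceptor, pigment epithelium, mesenchyme, endothelium and cell cycle lists had median differences of 0.09, -0.24, -0.45, -0.29, -0.44, -0.34 and -0.04.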

Additional observations from a re-analysis of the deposited data

How the results depend on the processing

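Tried were scaling by median ratio or by upper quartile, a pseudocount of 0.1, testing any gene with a value above 0, a minimum of 5 TPM, a mean-variance trend, FPKM, leaving out genes on several rows, the replicate number as a block, and leaving out each library in turn, where the lone library of a group is assumed to vary like the other group. In limma 0 members passed the adjusted threshold under any of these, and between 1 and 24 had an unadjusted p-value under 0.05. The median difference of the members, 0.30, stayed between 0.29 and 0.35, and lay between 0.18 (without Isl1cKO replicate 2) and 0.41 (without Isl1cKO replicate 1) with a library left out. Median-ratio scaling moved the median of all genes from -0.05 to 0.01. Of 35 members, 3 changed sign under the alternatives that keep all libraries (Pfkm, Pdhb and Mpc2), and 7 with a library left out. The count of called genes, 69, was 44 at a pseudocount of 0.1, 15 with any value above 0, 110 with the trend and 109 with FPKM, and ranged from 10 to 37 with a library left out. With the replicate block it was 265. The replicate numbers share no litter or day in the labels, and deviations of the libraries numbered 1 correlated at 0.126 over 13984 genes, so the numbers were not taken as pairs. The cause of these shifts was not tested. Depth in reads is not recorded, which limits what can be said of Pdk4.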

Other observations

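Myc and Mycn, which encode transcription factors of growing cells, were read apart from the lists, and any part of theirs in the glycolytic genes was not tested. Myc levels were 9.79 and 13.1 TPM in the controls (replicates 1 and 2), against 16.1 and 22.9 TPM in the Isl1cKO libraries, a difference of 0.71 on the log2(TPM + 1) scale that did not pass over all genes in limma (adjusted p-value 0.342). Its Isl1cKO values lay above both controls. Mycn, the more abundant of the pair, was at 122 and 123 TPM in the controls, against 112 and 122 TPM in the Isl1cKO libraries.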
